A study of Mus musculus with 21 samples.

Results

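The genes of retinoic acid synthesis, breakdown and reception were followed across mouse embryoid bodies, aggregates of differentiating embryonic stem cells, in which TWIST1 was switched on as a monomer or as one of several tethered dimers. The 9 genes, taken by symbol from the 48321 symbols of the count tables, are the retinaldehyde dehydrogenases Aldh1a2 and Aldh1a3, the retinoic acid hydroxylases Cyp26a1 and Cyp26b1, the nuclear receptors Rara, Rarb and Rarg, and the cellular retinoic acid binding proteins Crabp1 and Crabp2. All 21 libraries came from A2loxCre embryonic stem cells labelled C57BL/6, differentiated for 3 days, with 3 libraries in each of 7 groups. Parental cells carried no integrated TWIST1 coding sequence and received doxycycline. The monomer line, with a Twist1 monomer sequence placed behind a doxycycline-inducible promoter, was sampled without doxycycline (uninduced monomer cells) and with it (the induced monomer). Lines with a Twist1 homodimer, a Twist1-Tcf3, a Twist1-Tcf4 or a Twist1-Tcf12 dimer at that promoter were sampled with doxycycline. Induction lasted 16 h before collection. The labels do not say whether a line is a single clone, nor whether the 3 libraries of a group came from separate cultures, so p-values measure the spread between these libraries, which may be technical.

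Retinoic acid is made from vitamin A in sequential oxidations, the last of which is carried out by the ALDH1A enzymes, and is broken down by the CYP26 enzymes. Inside the cell it is carried by CRABP proteins and acts through RAR receptors, which bind DNA as heterodimers with the retinoid X receptors. In the early embryo the balance of ALDH1A2 and CYP26A1 sets where retinoic acid signalling takes place, and Cyp26a1 and Rarb are textbook direct targets of the receptors through a response element of the DR5 type, a direct repeat of a hexamer. TWIST1 is a basic helix-loop-helix factor whose dimers with itself or with the E proteins TCF3, TCF4 and TCF12 bind E-box sequences.

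The promoters of Rarb and Cyp26a1 are shown because, among the promoter windows of these genes, only these held a DR5 match. RefSeq windows from 250 bases before to 50 bases after a transcript start (GRCm38.p6) were matched for 7 of the 9 genes, 11 windows in all, with capitals below marking the DR5 match.
Rarb, chr14:16575427-16575726, minus strand: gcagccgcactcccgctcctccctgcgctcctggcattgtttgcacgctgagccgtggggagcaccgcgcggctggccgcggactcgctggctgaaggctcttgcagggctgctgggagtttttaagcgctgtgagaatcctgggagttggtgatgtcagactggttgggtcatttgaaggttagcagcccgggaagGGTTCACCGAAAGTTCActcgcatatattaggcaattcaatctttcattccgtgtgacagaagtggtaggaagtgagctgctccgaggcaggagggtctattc
Cyp26a1, chr19:37697558-37697857, plus strand: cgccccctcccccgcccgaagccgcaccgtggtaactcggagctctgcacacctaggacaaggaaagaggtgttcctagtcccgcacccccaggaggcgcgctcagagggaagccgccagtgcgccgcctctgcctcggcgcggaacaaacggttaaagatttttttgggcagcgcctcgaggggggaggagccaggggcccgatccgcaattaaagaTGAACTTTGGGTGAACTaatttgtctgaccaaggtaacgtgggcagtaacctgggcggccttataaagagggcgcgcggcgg
The Rarb match lay from -53 to -37 relative to the start, on the strand of the gene, and the Cyp26a1 match from -32 to -16, on the opposite strand. Both strands were searched, and DR5 matches were present in 32 of 32851 windows of that length in the whole RefSeq set, or 0.0974%. The E-box letters CANNTG, present in 72.3% of all windows, occurred in windows of Aldh1a2, Cyp26b1, Rara, Rarb and Rarg and in neither the Cyp26a1 nor the Crabp1 window. These matches describe letters in a window and show nothing about binding.

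Library totals ran from 6648842 to 15999693 counts, so that 3 counts, the smallest level treated as detected, correspond to between 0.188 and 0.451 CPM, the counts of a gene scaled to library size with edgeR's TMM factors. Twist1 averaged 8.11 ± 0.789 CPM (SD, n = 3) in parental cells, 613 ± 31.6 CPM in the induced monomer, 182 ± 16.6 CPM in the homodimer and between 39.4 and 55.2 CPM in the groups labelled as heterodimers. Tcf4 was at 330 ± 22.6 CPM in the TCF4 dimer against 47.5 ± 7.26 CPM in parental cells. Tcf3 lay at 151 to 159 CPM in the libraries labelled TCF3 dimer, below the 162 to 173 CPM of parental cells, and Tcf12 was as high in the libraries labelled TCF3 dimer (91.3 to 120 CPM) as in those labelled TCF12 dimer (53.2, 118 and 108 CPM). The libraries are therefore called labelled TCF3 dimer and labelled TCF12 dimer throughout. In the TCF4 dimer too, Tcf12 lay above parental cells, at 85.0 to 93.7 CPM against 62.9 to 68.9 CPM. Sample 1 labelled TCF12 dimer stood apart from its group: its 1273 genes with at most 1.5 kb of exon had a median deviation from the mean of the other libraries of its group of 0.776 on the log2 scale, against -0.0868 to 0.085 in the 18 libraries of the other groups. Among the 9 genes, most results that rest on this library are given with and without it. Sample 1 of uninduced monomer cells also stood apart from its group, with the lowest total and 3.05% of its counts on Lars2, against 0.0741% to 0.465% in the other 20 libraries. Its chi-square per degree of freedom against the other two was 41.5 and 46.4, where theirs was 2.81, and 3.43 and 5.27 once Lars2, Gm23935, Gm42418 and Gm26917 were left out. Without it the same 3 of the 9 genes passed against parental cells, Cyp26a1 by 1.16 (adjusted p = 4.97e-04), Rarg by 0.43 (0.00145) and Crabp2 by -0.74 (0.0359). The share of all genes passing in that fit was not computed. Embryonic stem cell and epiblast markers were present in every group, 8 genes summing to 1826 to 1889 CPM in parental cells and to between 1742 and 2022 CPM in the monomer line and homodimer. Behind these sums single markers moved in opposite directions. Against parental cells 4 rose and 3 fell in uninduced and in induced monomer cells, and 3 rose and 3 fell in the homodimer. The sum was lower in the labelled TCF3 (1207 to 1387 CPM) and TCF4 dimers (1413 to 1458 CPM), and was 1826, 1360 and 1322 CPM in the labelled TCF12 dimer, with 5 of the 8 falling against parental cells in each. The 10 primitive streak markers summed to 235 to 284 CPM in parental cells and to between 17.9 and 44.8 CPM in all other groups, and the part of this in the differences from parental cells given below was not tested.

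Per kilobase of exon, the receptor Rarg was the most abundant of the 9 transcripts in parental cells, at a level of 21.1 ± 0.764 CPM per kb (n = 3). Crabp2 followed at 14.7 ± 1.65, Crabp1 at 11.5 ± 1.27, Rara at 9.11 ± 0.878 and Cyp26a1 at 7.55 ± 0.565 CPM per kb. The libraries of neighbours in this order did not overlap. Both synthesis enzymes were far lower and overlapped each other, Aldh1a2 at 0.513 ± 0.154 and Aldh1a3 at 0.460 ± 0.0296 CPM per kb, and Rarb (0.0541 ± 0.0136) and Cyp26b1 (0.00675 ± 0.0117) were near or below the detection floor.

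**Figure D1:**
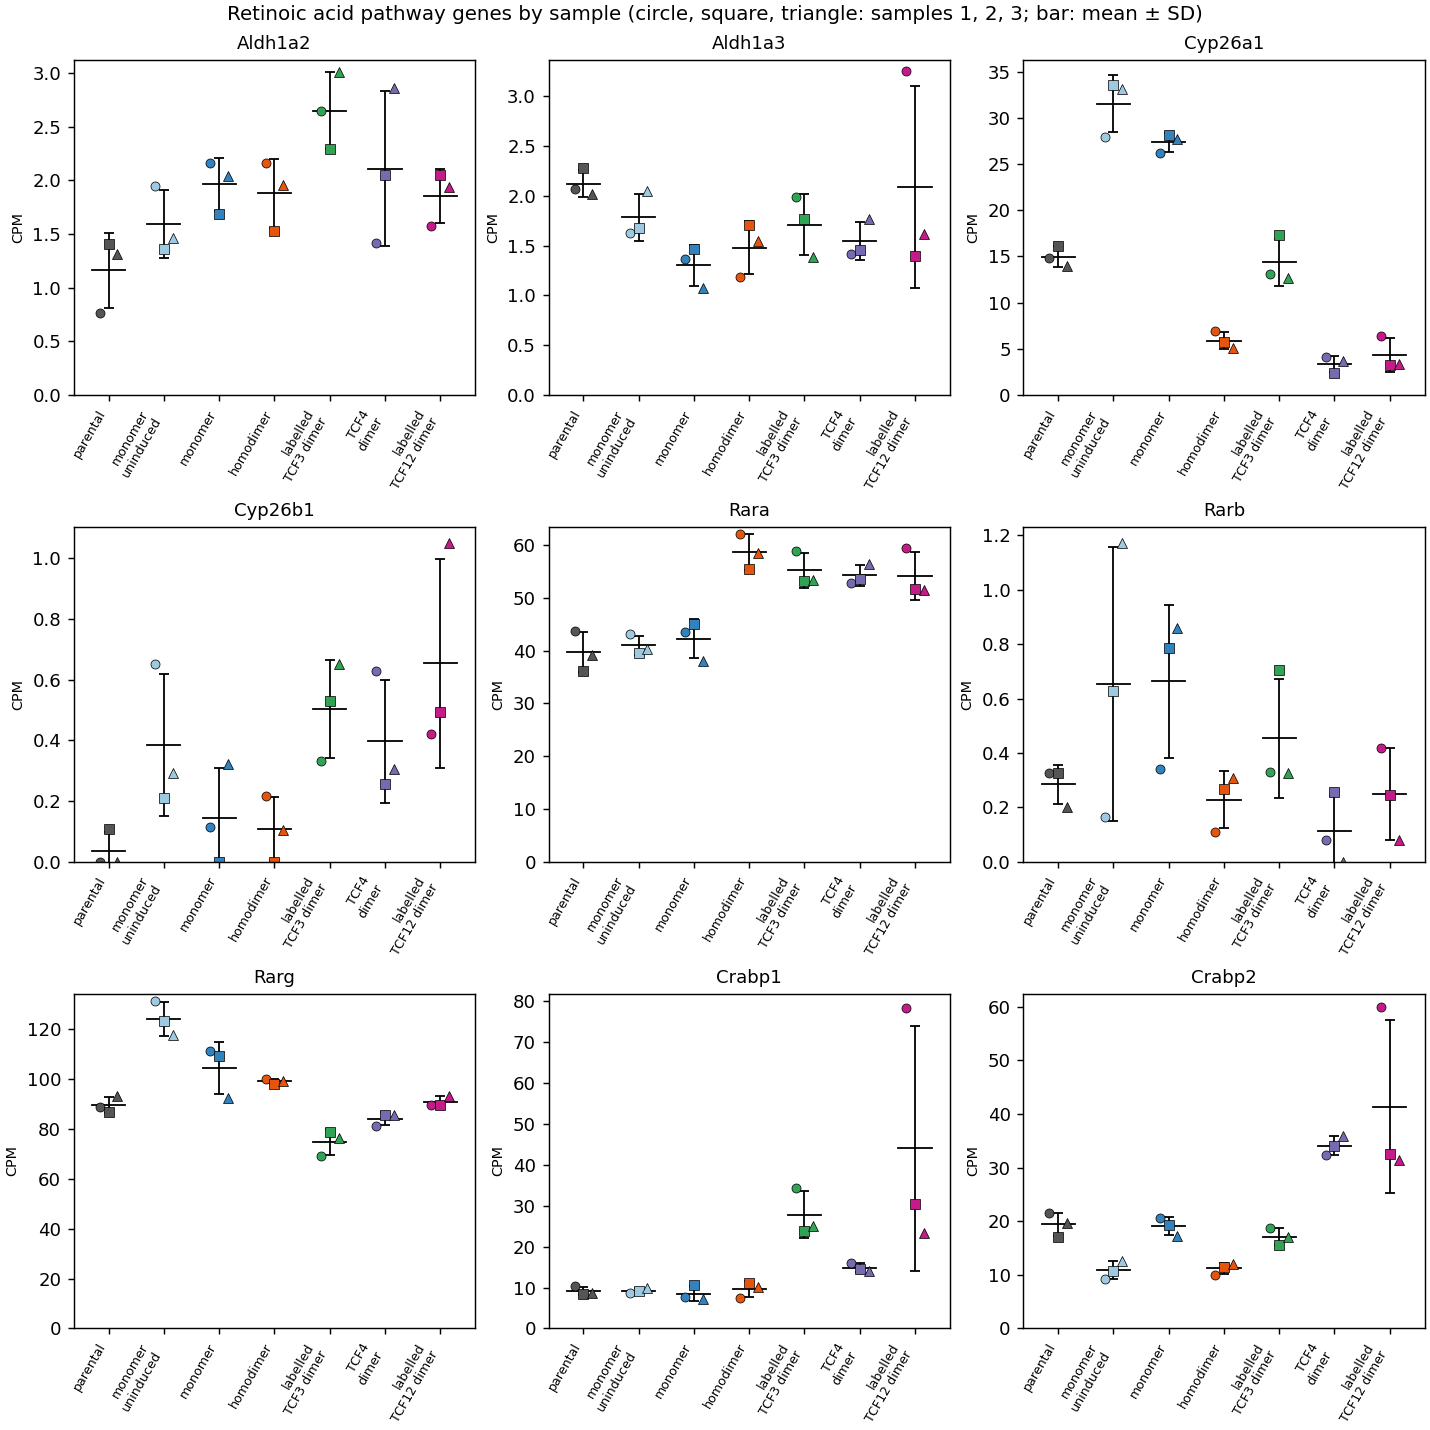
Level of each of the 9 genes (CPM, linear axes starting at 0) in the 21 libraries; circle, square and triangle are samples 1, 2 and 3, bars are the mean ± SD of 3. Cyp26a1 is highest in the uninduced and induced monomer cells, Rara is higher in the 4 dimer groups than elsewhere, and the TCF12-labelled circle stands apart for Crabp1 and Crabp2.

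Of the 9 genes, 7 passed the filter on low counts and entered the test across 14311 genes (edgeR's quasi-likelihood test, Benjamini-Hochberg adjusted p under 0.05), Cyp26b1 and Rarb being left out by it. Against parental cells, 3 of the 7 passed in uninduced monomer cells, where 19.9% of all genes did, 2 being higher (10.5% of all genes) and 1 lower (9.43%). In induced monomer cells 2 passed, against 20.0% of all genes, and both were higher (10.8% higher and 9.22% lower among all genes). In the homodimer 3 passed against 8.84%, 1 higher (4.81%) and 2 lower (4.02%). The groups labelled as heterodimers had 4 each, 3 higher and 1 lower. The background was 28.3% (16.3% higher, 12% lower) for the labelled TCF3 dimer, 12.9% (7.18% and 5.67%) for the TCF4 dimer and 27.0% (15.5% and 11.5%) for the labelled TCF12 dimer. These shares were higher when sample 1 labelled TCF12 dimer was left out of the fit. They were then 36.8% in uninduced and 35.2% in induced monomer cells, 20.4% in the homodimer and 28.1% in the TCF4 dimer. The labelled TCF3 and TCF12 dimers had 46.5% and 30.3%. Every call among the 7 genes was kept, and Aldh1a3 in the induced monomer and Crabp1 in the TCF4 dimer were added.

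Against the induced monomer, 3 genes passed in the homodimer (18.5% of all genes), 1 higher (9.15%) and 2 lower (9.31%). In the labelled TCF3 dimer 4 passed (22.1%), 2 in each direction (12.7% higher and 9.36% lower among all genes), and in the TCF4 dimer 4 (27.4%), again 2 in each direction (14.5% and 13.0%). In the labelled TCF12 dimer 5 passed (33.5%), 3 higher (18.1%) and 2 lower (15.5%). Without sample 1 labelled TCF12 dimer the shares of all genes were 33.3%, 40.9%, 45.5% and 42.4% in the same order. Crabp1 in the TCF4 dimer was the call then added. Groups without any overlap of libraries against parental cells were found for 3 genes in uninduced (46.8% of all genes) and 3 in induced monomer cells (46.1%), 6 in the homodimer (36.0%), 7 in the TCF4 dimer (41.2%), 5 in the labelled TCF3 dimer (54.6%) and 5 in the labelled TCF12 dimer (33.3%). Against the induced monomer they were found for 3 (44.8%), 5 (50.5%), 5 (53.4%) and 4 genes (36.4%) in the homodimer and the labelled TCF3, TCF4 and labelled TCF12 dimers. Comparisons against parental cells share their 3 libraries, and those against the monomer share the 3 monomer libraries.

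**Figure D2:**
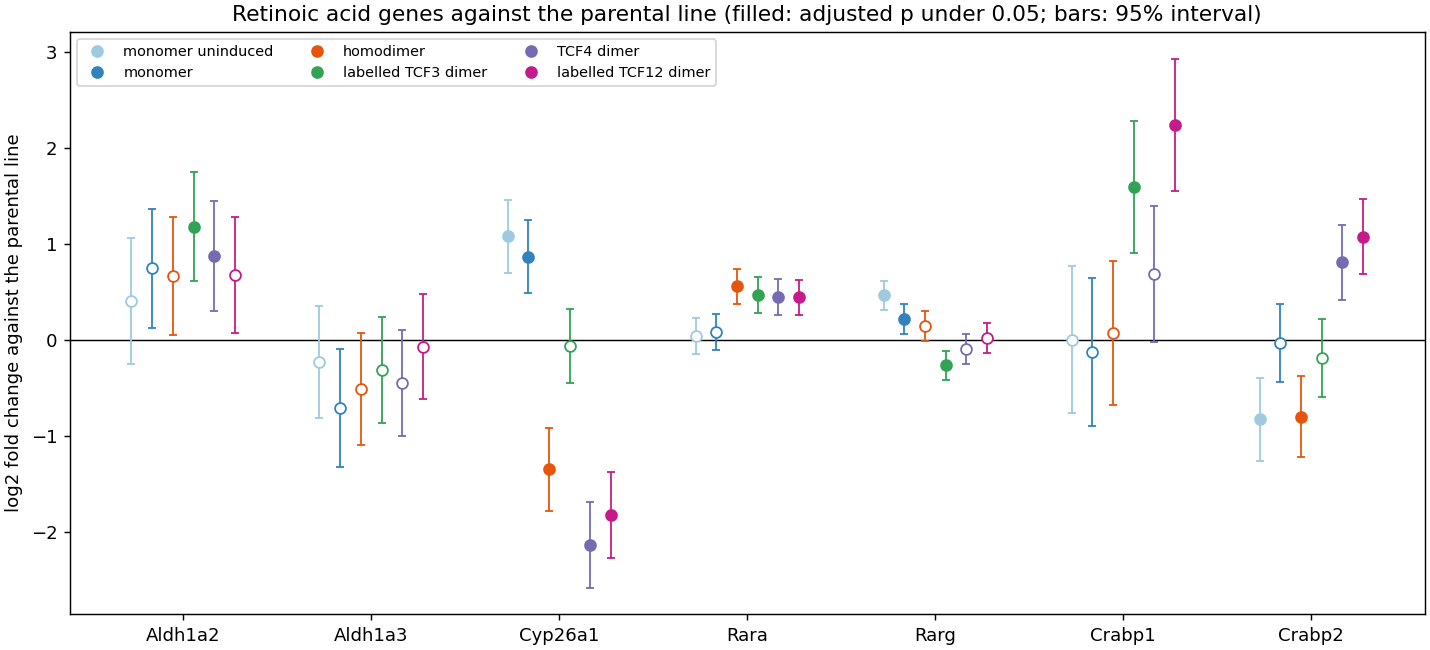
Log2 fold change of the 7 tested genes in each group against parental cells (points), with 95% intervals (bars); filled points have an adjusted p under 0.05. Rara lies between 0.45 and 0.56 in all 4 dimer groups, while Cyp26a1 spans from 1.08 in uninduced monomer cells to -2.13 in the TCF4 dimer.

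Of the synthesis enzymes, Aldh1a2 was low in every library and highest in the labelled TCF3 dimer. Aldh1a2 (chromosome 9, 71215789-71296243, plus strand, GENCODE M21 on GRCm38) encodes the main retinaldehyde dehydrogenase of the early embryo. Its level was 0.763, 1.41 and 1.31 CPM in the parental libraries, 2.65, 2.30 and 3.01 CPM in those labelled TCF3 dimer and 1.42, 2.05 and 2.86 CPM in the TCF4 dimer. Every labelled TCF3 library exceeded every parental one, and the lowest TCF4 library lay just above the highest parental library. The log2 change from parental cells was 1.18 (SE 0.271, adjusted p = 0.00259) in the labelled TCF3 dimer, or 2.27-fold, and 0.88 (SE 0.275, adjusted p = 0.0412) in the TCF4 dimer. The TCF4 call was lost with DESeq2 (adjusted p = 0.0857), without a count filter (0.0769), with scaling by library size alone (0.0506) and without any of 5 of the 6 libraries compared, the smallest change being 0.56 without TCF4 dimer sample 3. It was kept without sample 1 labelled TCF12 dimer (0.88, adjusted p = 0.0201, 28.1% of all genes passing). In the uninduced and induced monomer, the homodimer and the labelled TCF12 dimer, group means lay between 1.59 and 1.96 CPM, and none of these differences from parental cells passed the test. Against the induced monomer, Aldh1a2 passed in no dimer, with a change of 0.43 (95% interval -0.09 to 0.95) in the labelled TCF3 dimer.

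Aldh1a3, which encodes another retinaldehyde dehydrogenase (chromosome 7, 66390890-66427517, minus strand), passed in no comparison. Its mean level ran from 1.30 ± 0.202 CPM in the induced monomer to 2.12 ± 0.136 CPM in parental cells. The widest difference was that of the induced monomer from parental cells, -0.70 on the log2 scale (SE 0.293, adjusted p = 0.106), with every monomer library below every parental one. That difference passed when sample 1 labelled TCF12 dimer was left out of the fit (-0.71, adjusted p = 0.0491, with 35.2% of all genes). The labelled TCF12 dimer held 3.25, 1.39 and 1.61 CPM, the first value from the library that stood apart.

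On the breakdown side, Cyp26a1 had the widest range of the 9 genes, 3.05 on the log2 scale between group means. CYP26A1 (chromosome 19, 37697798-37701536, plus strand) is the main retinoic acid hydroxylase of the gastrulating embryo. Parental libraries held 14.8, 16.2 and 13.9 CPM, uninduced monomer cells 28.0, 33.6 and 33.1 CPM and the induced monomer 26.2, 28.1 and 27.7 CPM. All 6 libraries of the monomer line thus lay above all 3 parental ones, whether or not doxycycline had been given.
The homodimer held 6.91, 5.74 and 5.04 CPM, the TCF4 dimer 4.09, 2.39 and 3.65 CPM and the labelled TCF12 dimer 6.40, 3.20 and 3.39 CPM. These 9 libraries lay below every parental library. The libraries labelled TCF3 dimer, at 13.1, 17.3 and 12.7 CPM, overlapped the parental range.

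Against parental cells, Cyp26a1 rose by 1.08 (SE 0.180, adjusted p = 2.30e-04) on the log2 scale in uninduced monomer cells, or 2.12-fold, and by 0.87 (SE 0.180, adjusted p = 0.00157) in the induced monomer. It fell by 1.34 (SE 0.205, adjusted p = 1.77e-04) in the homodimer, by 2.13 (SE 0.212, adjusted p = 8.41e-07) in the TCF4 dimer and by 1.82 (SE 0.212, adjusted p = 3.24e-06) in the labelled TCF12 dimer. The TCF4 level was 0.228 times the parental level. Without sample 1 labelled TCF12 dimer the TCF12 change was -2.18. In the labelled TCF3 dimer the change was -0.06 (95% interval -0.45 to 0.32, adjusted p = 0.856).

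Set against the induced monomer, all 4 dimers had lower Cyp26a1, with changes of -2.21 in the homodimer (adjusted p = 1.49e-07), -3.00 in the TCF4 dimer (2.35e-09), -0.93 in the labelled TCF3 dimer (7.93e-04) and -2.69 in the labelled TCF12 dimer (9.28e-09). Without sample 1 labelled TCF12 dimer the last change was -3.04. The 3 heterodimer groups differed among themselves (adjusted p = 5.49e-07): the labelled TCF3 dimer exceeded the TCF4 dimer by 2.07 (SE 0.209) and the labelled TCF12 dimer by 1.76 (SE 0.209), or by 2.11 without sample 1 of the latter. TCF12-labelled and TCF4 libraries did not separate (0.31, 95% interval -0.19 to 0.81). In falling order of mean level the groups were uninduced monomer cells, induced monomer, parental line, labelled TCF3 dimer, homodimer, labelled TCF12 dimer and TCF4 dimer. Without sample 1 the mean of the labelled TCF12 dimer was 3.29 CPM, below the 3.38 CPM of the TCF4 dimer, so that the last places changed. Neighbours whose libraries overlapped in that order were the uninduced and induced monomer, parental cells and labelled TCF3 dimer, the homodimer and labelled TCF12 dimer, and the labelled TCF12 and TCF4 dimers. The overlap with the homodimer came from sample 1 (6.40 CPM), since samples 2 and 3 labelled TCF12 dimer lay below every homodimer library.

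Markers of primitive and definitive endoderm moved with Cyp26a1. The summed level of 12 such genes, among them Sox17, Gata6 and the basement membrane genes Lama1 and Col4a1, was 1071 to 1098 CPM in parental cells, 3647 to 4254 CPM in uninduced monomer cells and 3597 to 3933 CPM in the induced monomer. It was 709 to 787 CPM in the homodimer, 725 to 773 CPM in the TCF4 dimer, 607 to 822 CPM in the labelled TCF12 dimer and 2268 to 2815 CPM in the labelled TCF3 dimer. None of the 12 was at 0 in any group. Against parental cells 11 of the 12 rose in uninduced monomer cells, 9 fell in the homodimer, 11 fell in the TCF4 dimer, 10 fell in the labelled TCF12 dimer, and 11 rose while 1 fell in the labelled TCF3 dimer. Across the 7 group means the log2 levels of Cyp26a1 and of the marker sum had a Pearson r of 0.919, a description over groups that share their lines and scaling. The labelled TCF3 dimer departed from that order, with more endoderm marker RNA than parental cells and no more Cyp26a1. In bulk RNA, fewer cells of a type and less RNA per cell cannot be told apart, and the part of the endoderm markers in the Cyp26a1 result was not tested.

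**Figure D3:**
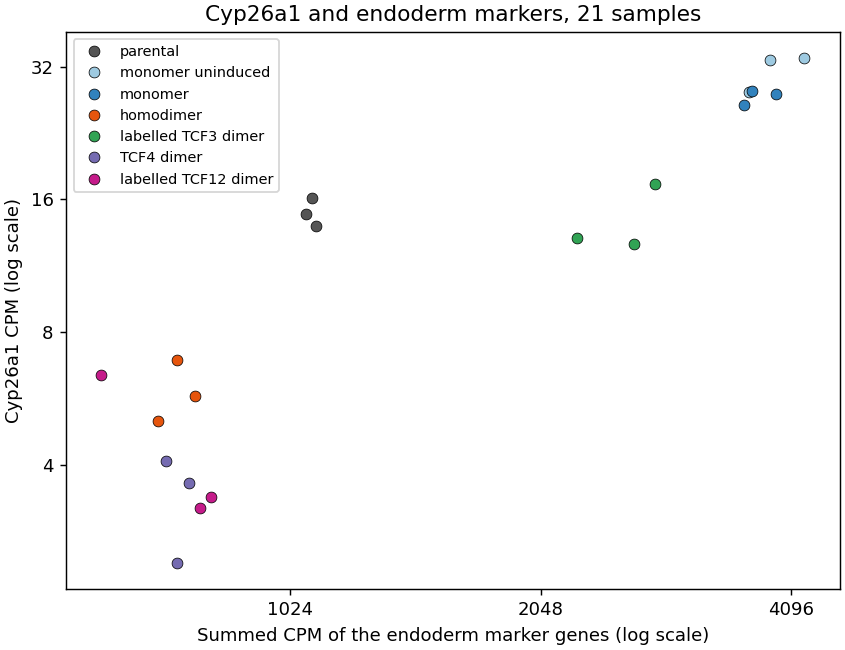
Cyp26a1 level against the summed level of 12 endoderm marker genes (both in CPM on log axes), 1 point per library, coloured by group. The 6 monomer-line libraries sit at the upper right, the homodimer, TCF4 and labelled TCF12 libraries at the lower left, and the parental libraries lie above the homodimer at a marker sum of 1071 to 1098 CPM.

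Cyp26b1, which encodes a related hydroxylase (chromosome 6, 84571414-84593908, minus strand), was read only in single counts. Parental libraries held 0, 1 and 0 counts, homodimer libraries 2, 0 and 1, uninduced monomer libraries 4, 2 and 3 and those of the induced monomer 1, 0 and 3. Libraries labelled TCF3 dimer held 4, 6 and 8 counts, those of the TCF4 dimer 8, 3 and 5, and those labelled TCF12 dimer 4, 6 and 13. The heterodimer libraries all reached 3 counts, as did 2 uninduced and 1 induced monomer library, and no parental or homodimer library did. When the filter was removed, Cyp26b1 passed against parental cells in the labelled TCF3 dimer (adjusted p = 0.0111, where 12.6% of 28086 genes passed) and the labelled TCF12 dimer (0.00211, 13.8%), as against the induced monomer in the labelled TCF12 dimer (0.0359, 16.9%) and in the heterodimers against the homodimer (0.0439, 6.08%). In the TCF4 dimer against parental cells it did not (0.0651). The parental group summed to 1 count and the homodimer to 3, so no fold change is given.

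Among the receptors, Rara was higher in every dimer group, while Rarg was highest in uninduced monomer cells and lowest in the labelled TCF3 dimer. Rara (chromosome 11, 98927818-98974942, plus strand) encodes the broadly expressed receptor RAR alpha. Parental libraries held 43.8, 36.2 and 39.3 CPM, uninduced monomer cells 43.1, 39.6 and 40.3 CPM, and the induced monomer 43.6, 45.1 and 38.0 CPM. All 12 dimer libraries were higher, from 51.5 to 62.2 CPM, so that they did not overlap any of the other 9. The log2 change from parental cells was 0.56 (SE 0.0887, adjusted p = 2.47e-04) in the homodimer, 0.47 (SE 0.0884, 4.32e-04) in the labelled TCF3 dimer, 0.45 (SE 0.0881, 0.00152) in the TCF4 dimer and 0.45 (SE 0.0886, 0.00107) in the labelled TCF12 dimer. In the last group it was 0.37 without sample 1 (adjusted p = 4.91e-04). Against the induced monomer the changes ran from 0.36 to 0.47, all 4 passing (adjusted p from 7.12e-04 to 0.00428). That of the labelled TCF12 dimer was 0.30 without its sample 1 (adjusted p = 0.00294). With only the groups compared in the fit, the TCF12 calls were lost (adjusted p = 0.111 against parental cells and 0.140 against the monomer). The dimer groups did not separate from each other: heterodimers against the homodimer gave -0.10 (95% interval -0.25 to 0.04, adjusted p = 0.402) and the 3 heterodimers among themselves an adjusted p of 0.954. On induction of the monomer the difference in Rara was 0.04 (95% interval -0.15 to 0.23). Across the 7 group means Rara had a Pearson r of -0.723 with the summed epiblast markers, Aldh1a2 one of -0.738, Rarg one of 0.851 and Crabp1 one of -0.801. With the summed primitive streak markers Aldh1a2 had an r of -0.897. These values are a description over groups that share their scaling, and the part of the epiblast and streak markers in these results was not tested.

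Rarg (chromosome 15, 102234938-102257517, minus strand) encodes RAR gamma, the receptor most abundant in early embryonic cells. Its level was 89.1, 86.8 and 93.2 CPM in parental cells, 131, 123 and 118 CPM in uninduced monomer cells, and 112, 109 and 92.6 CPM in the induced monomer. The uninduced libraries were above all others of the series, and the induced ones overlapped the parental range. Libraries labelled TCF3 dimer were the lowest, at 69.0, 78.9 and 76.5 CPM. The rise in uninduced monomer cells was 0.47 (SE 0.0741, adjusted p = 1.40e-04) and the decrease in the labelled TCF3 dimer was -0.26 (SE 0.0742, adjusted p = 0.0120), which without sample 1 of that group became -0.19 (adjusted p = 0.106) and without a count filter -0.25 (0.108). In the induced monomer the difference of 0.22 (adjusted p = 0.0429) lost its call under 4 other settings and without any of 5 of the 6 libraries (adjusted p from 0.0674 to 0.223). With sample 1 labelled TCF12 dimer left out, the labelled TCF3 decrease was -0.27 (adjusted p = 6.03e-04, 46.5% of all genes passing). The induced monomer difference was then 0.21 (0.00919, 35.2%). Relative to the induced monomer Rarg was lower in the labelled TCF3 dimer (-0.48, adjusted p = 1.03e-04) and the TCF4 dimer (-0.31, 0.00346). The labelled TCF12 dimer, at -0.20 (0.0448), overlapped the monomer and lost its call under 3 other settings and without monomer sample 1 (-0.14, adjusted p = 0.210), monomer sample 2 (0.166) or TCF12-labelled sample 2 (0.0699). Without TCF12-labelled sample 1 its change was -0.18 (0.0311, 42.4% of all genes passing). As a group the heterodimers were below the homodimer by -0.26 (SE 0.0595, adjusted p = 0.00540, and 0.0516 without a count filter). In that comparison 3 of the 7 passed against 14.0% of all genes, 2 higher (7.99%) and 1 lower (6.04%), and the same number had no overlap (9.20%). Without sample 1 labelled TCF12 dimer 28.9% of all genes passed it.

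Rarb (chromosome 14, 16430839-16819156, minus strand), the receptor whose promoter is printed above, gave at most 12 counts in any library. Summed over 3 libraries it had 8 counts in parental cells, 19 in uninduced monomer cells, 18 in the induced monomer, 7 in the homodimer, 4 in the TCF4 dimer, and 16 and 8 in the labelled TCF3 and TCF12 dimers. Per library the induced monomer held 3, 7 and 8 counts and the TCF4 dimer 1, 3 and 0. Without the filter this difference passed (-2.60, SE 0.739, adjusted p = 0.00945, where 12.5% of genes did), the only Rarb call of the 13 comparisons. The summed endoderm markers given beside Cyp26a1 moved with it, at 3597 to 3933 CPM in the induced monomer and 725 to 773 CPM in the TCF4 dimer. Across the 7 group means Rarb and that sum had a Pearson r of 0.959, and their part in the Rarb result was not tested. Of its 5265 exon bases, 1793 (34.1%) are shared with Top2b on the opposite strand, and the sources used here do not say whether counting used strand, so reads of both genes may not have been told apart.

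Of the binding proteins, Crabp1 rose in the libraries labelled TCF3 and TCF12 dimer, and Crabp2 in the TCF4 and labelled TCF12 dimers. Crabp1 (chromosome 9, 54764748-54773110, plus strand) encodes a cytoplasmic retinoic acid carrier of embryonic mesenchyme and neural tissue. It held 10.4, 8.46 and 8.78 CPM in parental cells and stayed between 7.20 and 11.2 CPM in the 9 libraries of the uninduced monomer, induced monomer and homodimer. It reached 34.4, 23.9 and 25.1 CPM in the labelled TCF3 dimer, 16.0, 14.5 and 13.9 CPM in the TCF4 dimer, and 78.3, 30.4 and 23.4 CPM in the labelled TCF12 dimer. Every heterodimer library lay above each of the other 12.
The change from parental cells was 1.60 (SE 0.330, adjusted p = 0.00110) in the labelled TCF3 dimer, or 3.02-fold, and 2.25 (SE 0.328, adjusted p = 4.87e-05) in the labelled TCF12 dimer. Without sample 1 the latter was 1.54 (adjusted p = 3.19e-09, 30.3% of all genes passing), and the mean of the 2 remaining libraries was 26.9 CPM. Crabp1 has 802 bases of exon and so falls in the class of short genes that deviated in that library, and the part of this deviation in the pooled value was not tested. In the TCF4 dimer the change of 0.69 (95% interval -0.02 to 1.40) did not pass (adjusted p = 0.225), while in the fit without sample 1 labelled TCF12 dimer it did (0.68, adjusted p = 0.00121, 28.1% of all genes passing). As a group the heterodimers exceeded the homodimer by 1.44 (SE 0.285, adjusted p = 0.00154), or by 1.19 without that library.
The heterodimers also differed among themselves (adjusted p = 0.00339, and 0.102 with only the groups compared in the fit). The labelled TCF12 dimer exceeded the TCF4 dimer by 1.56 (adjusted p = 0.0119, 3.24% of all genes passing). Without sample 1 this was 0.86 (1.69e-04, 4.76%). The labelled TCF3 dimer exceeded the TCF4 dimer by 0.91 (adjusted p = 0.0430, 19.7%). The labelled TCF3 and TCF12 dimers did not pass (-0.65, adjusted p = 0.120, 18.8% of all genes passing, and 0.04 without sample 1).

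Crabp2 (chromosome 3, 87948666-87953376, plus strand) encodes the carrier that delivers retinoic acid to the nuclear receptors. Parental libraries held 21.5, 17.1 and 19.7 CPM, uninduced monomer cells 9.27, 10.7 and 12.6 CPM, the induced monomer 20.6, 19.4 and 17.3 CPM and the homodimer 10.0, 11.5 and 12.04 CPM. The uninduced and homodimer libraries were thus all below those of parental cells and the induced monomer. The labelled TCF3 dimer, at 18.7, 15.5 and 17.0 CPM, overlapped parental cells, whereas the TCF4 dimer (32.3, 34.0 and 35.9 CPM) and the labelled TCF12 dimer (59.9, 32.6 and 31.5 CPM) were above all of these.
Against parental cells Crabp2 fell by 0.82 (SE 0.206, adjusted p = 0.00716) in uninduced monomer cells and by 0.79 (SE 0.202, adjusted p = 0.0151) in the homodimer. The homodimer call was lost without parental sample 1 (adjusted p = 0.0719), parental sample 3 (0.0512) or homodimer sample 1 (0.0747), the change staying between -0.78 and -0.72. It was kept without sample 1 labelled TCF12 dimer (-0.79, adjusted p = 2.23e-06, 20.4% of all genes passing). Crabp2 rose by 0.81 (SE 0.185, adjusted p = 0.00541) in the TCF4 dimer and by 1.08 (SE 0.186, adjusted p = 2.76e-04) in the labelled TCF12 dimer, the latter being 0.72 without sample 1 (adjusted p = 1.20e-06). With 1322 bases of exon Crabp2 is also in the class of short genes that deviated in that library, whose part in the pooled value was not tested. With only the parental and TCF12-labelled libraries in the fit, that last call was lost (adjusted p = 0.0780).
Heterodimers as a group exceeded the homodimer by 1.36 (SE 0.171, adjusted p = 1.55e-05), or by 1.24 without sample 1 labelled TCF12 dimer. Among them the labelled TCF3 dimer was at -0.996 relative to the TCF4 dimer (adjusted p = 7.02e-04) and at -1.27 relative to the labelled TCF12 dimer (9.27e-05), and 4 of the 7 genes passed this comparison of heterodimers against 26.0% of all genes. Without sample 1 labelled TCF12 dimer the -1.27 became -0.91, and 40.1% of all genes passed the comparison of heterodimers. Rarg, among the 4 (adjusted p = 0.0248), lost its call with library size alone (0.148), without a count filter (0.126) and with only the groups compared (0.166). Leaving out single libraries, among them labelled TCF3 sample 1 (0.153), also lost that call, which was kept without sample 1 labelled TCF12 dimer (0.00211). Relative to the induced monomer, Crabp2 was lower in the homodimer (-0.77, adjusted p = 0.0110; 0.0568 without homodimer sample 1) and higher in the TCF4 dimer (0.84, 0.00213) and the labelled TCF12 dimer (1.11, 1.40e-04). Without sample 1 labelled TCF12 dimer the homodimer change was -0.75 (3.16e-06) and the labelled TCF12 change 0.76 (3.17e-07).

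Induction of the TWIST1 monomer within its own line gave few changes. None of the 7 genes passed with edgeR, against 2.00% of all genes, 3 had no overlap of libraries (21.5%), and 2 had an unadjusted p under 0.05, as did 9.59% of all genes. These were Crabp2, higher by 0.80 (SE 0.207, adjusted p = 0.0533; 0.71 and 0.239 without uninduced sample 1) after induction with no overlap of libraries, and Rarg, lower by -0.25 (SE 0.0738, adjusted p = 0.116), also without overlap. DESeq2 passed both (adjusted p = 0.0118 and 0.0451, against 2.56% of all genes), as did the fit without sample 1 labelled TCF12 dimer (1.94e-05 and 0.00984, 6.17%). Without a count filter only Crabp2 passed (0.00238, 0.968%). For Cyp26a1 the change on induction was -0.21 (95% interval -0.57 to 0.15) and for Crabp1 -0.13 (95% interval -0.91 to 0.65).

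As uninduced monomer cells already differed from parental cells, the dimers were also set against these cells, where 22.8% of all genes passed in the homodimer, 32.3% in the TCF4 dimer, and 28.9% and 37.0% in the labelled TCF3 and TCF12 dimers. Where a pair of values is given, the second is without sample 1 of the uninduced group. Rarg in the homodimer was then lower (-0.32, adjusted p = 0.00319, and -0.28, 0.0234) where it had been 0.15 against parental cells, and Crabp2 in the homodimer was at 0.031 (adjusted p = 0.952, and -0.06, 0.926) where it had been -0.79. Crabp2 in the labelled TCF3 dimer turned from -0.19 to 0.64 (adjusted p = 0.0236), a call lost without that library (0.55, 0.0910). Cyp26a1 in the labelled TCF3 dimer, at -0.06 against parental cells, was at -1.14 (adjusted p = 6.92e-05, and -1.22, 1.65e-04), and Aldh1a2 in the TCF4 dimer did not pass (0.47, adjusted p = 0.2001, and 0.60, 0.159). Rara in all 4 dimers (0.40 to 0.52) and Crabp1 in the labelled TCF3 and TCF12 dimers (1.59 and 2.24) kept their direction and their call.

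Ratios taken within a library do not depend on its scaling. The ratio of Rara to Rarg counts was 0.443 ± 0.0422 (SD, n = 3) in parental cells, 0.331 ± 0.0107 in the uninduced and 0.405 ± 0.0122 in induced monomer cells. In the homodimer it was 0.591 ± 0.0284, and it reached 0.645 ± 0.0180 in the TCF4 dimer, 0.742 ± 0.0975 in the labelled TCF3 dimer and 0.597 ± 0.0584 in the labelled TCF12 dimer. Every dimer library had a higher ratio, from 0.551 to 0.854, than any other library, of which the highest was 0.492. The ratio of Crabp1 to Crabp2 counts was 0.474 ± 0.0248 in parental cells, 0.438 ± 0.0547 in the TCF4 dimer and 1.62 ± 0.196 in the labelled TCF3 dimer. Ratios of Crabp1 to Crabp2 in the uninduced line (0.856 ± 0.0775) and the homodimer (0.856 ± 0.113) lay above parental cells with no overlap of libraries. So did those of the labelled TCF12 dimer, at 1.31, 0.932 and 0.744, with sample 1 the highest, while the induced monomer (0.444 ± 0.0915) overlapped parental cells.

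**Figure D4:**
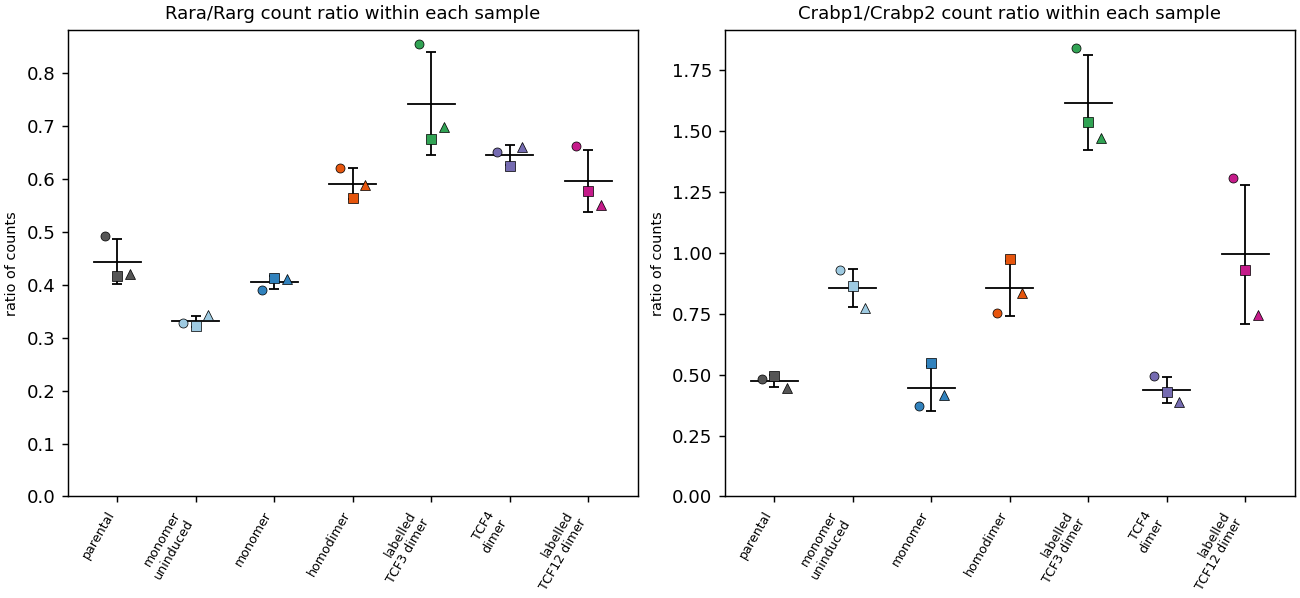
Ratio of Rara to Rarg counts (left) and of Crabp1 to Crabp2 counts (right) in each of the 21 libraries; symbols as samples 1, 2 and 3, bars the mean ± SD of 3. The 12 dimer libraries have a Rara to Rarg ratio of 0.551 to 0.854 and the other 9 reach at most 0.492; the Crabp1 to Crabp2 ratio is highest in the labelled TCF3 dimer.

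For the 3 genes with the widest range of group means, the transcripts with the most similar pattern over the 7 groups were sought among 11233 expressed genes. Those most like Cyp26a1 were Foxq1, a forkhead factor gene (Pearson r = 0.994 over 7 group means of log2 CPM), Tead4 (0.990) and Ppp1r10 (0.990). Without sample 1 labelled TCF12 dimer these were 0.990, 0.982 and 0.946. Ppp1r10 ranged far less than Cyp26a1, from 120 to 149 CPM between group means. Foxq1 was at 25.4 ± 1.28 CPM in uninduced monomer cells, 7.77 ± 0.540 CPM in parental cells and 1.35 ± 0.198 CPM in the TCF4 dimer. Most like Crabp1 were the cytokine receptor gene Il11ra1 (r = 0.997), Etv2, an ETS factor gene of blood vessel and blood progenitors (0.994), and Cmtm3 (0.986). Without sample 1 labelled TCF12 dimer, in which Il11ra1 (37.6 CPM) and Etv2 (15.7 CPM) were also highest, these correlations were 0.995, 0.991 and 0.984. The genes most like Crabp2 were 9030624J02Rik, Tnk2 and Zfp628, each with an r of 0.968 (0.904 to 0.949 without that library), and they ranged far less than Crabp2 did, Tnk2 from 64.9 to 75.7 CPM between group means.

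Of 23 other genes of retinoid synthesis and handling, 16 were tested. Against parental cells 2 rose and 4 fell in uninduced monomer cells, 2 rose and 3 fell in the induced monomer, 3 rose and 0 fell in the homodimer, 4 rose and 2 fell in the labelled TCF3 dimer, 3 rose in the TCF4 dimer and 4 rose in the labelled TCF12 dimer. The shares of all genes passing were 19.9%, 20.0%, 8.84%, 28.3%, 12.9% and 27.0% in that order. The median log2 change of the 16 ran from -0.46 in the induced monomer to 0.27 in the labelled TCF12 dimer, while the medians of all genes tested were at most 0.0244. Rdh10, which encodes the retinol dehydrogenase that makes retinaldehyde in the embryo, was at 12.2 ± 0.839 CPM in parental cells and rose to 30.6 ± 3.16 CPM in the uninduced (1.33, adjusted p = 9.40e-08) and 27.8 ± 1.76 CPM in induced monomer cells (1.18, 3.56e-07). Dhrs3, which encodes the reductase that returns retinaldehyde to retinol, was the gene of this list that passed on induction of the monomer, from 1.30, 1.57 and 1.07 CPM to 3.98, 4.73 and 4.62 CPM (1.75, SE 0.273, adjusted p = 7.42e-04). It stood at 3.17 ± 0.296 CPM in parental cells and at 8.68 ± 0.572 CPM in the homodimer (1.45 against parental cells, adjusted p = 9.33e-05), and the heterodimers were below the homodimer (-0.83, 7.17e-04). Stra6, the gene of the retinol uptake receptor, rose against parental cells in the labelled TCF3 (1.78, adjusted p = 1.07e-04), TCF4 (1.29, 0.00584) and labelled TCF12 dimers (1.44, 0.00167). Aldh1a1, a further retinaldehyde dehydrogenase gene, was at 1.08, 1.80 and 1.13 CPM in the homodimer and at or below 0.608 CPM in every other library (3.16 against parental cells, adjusted p = 9.09e-04, from parental levels near the detection floor).

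**Figure D5:**
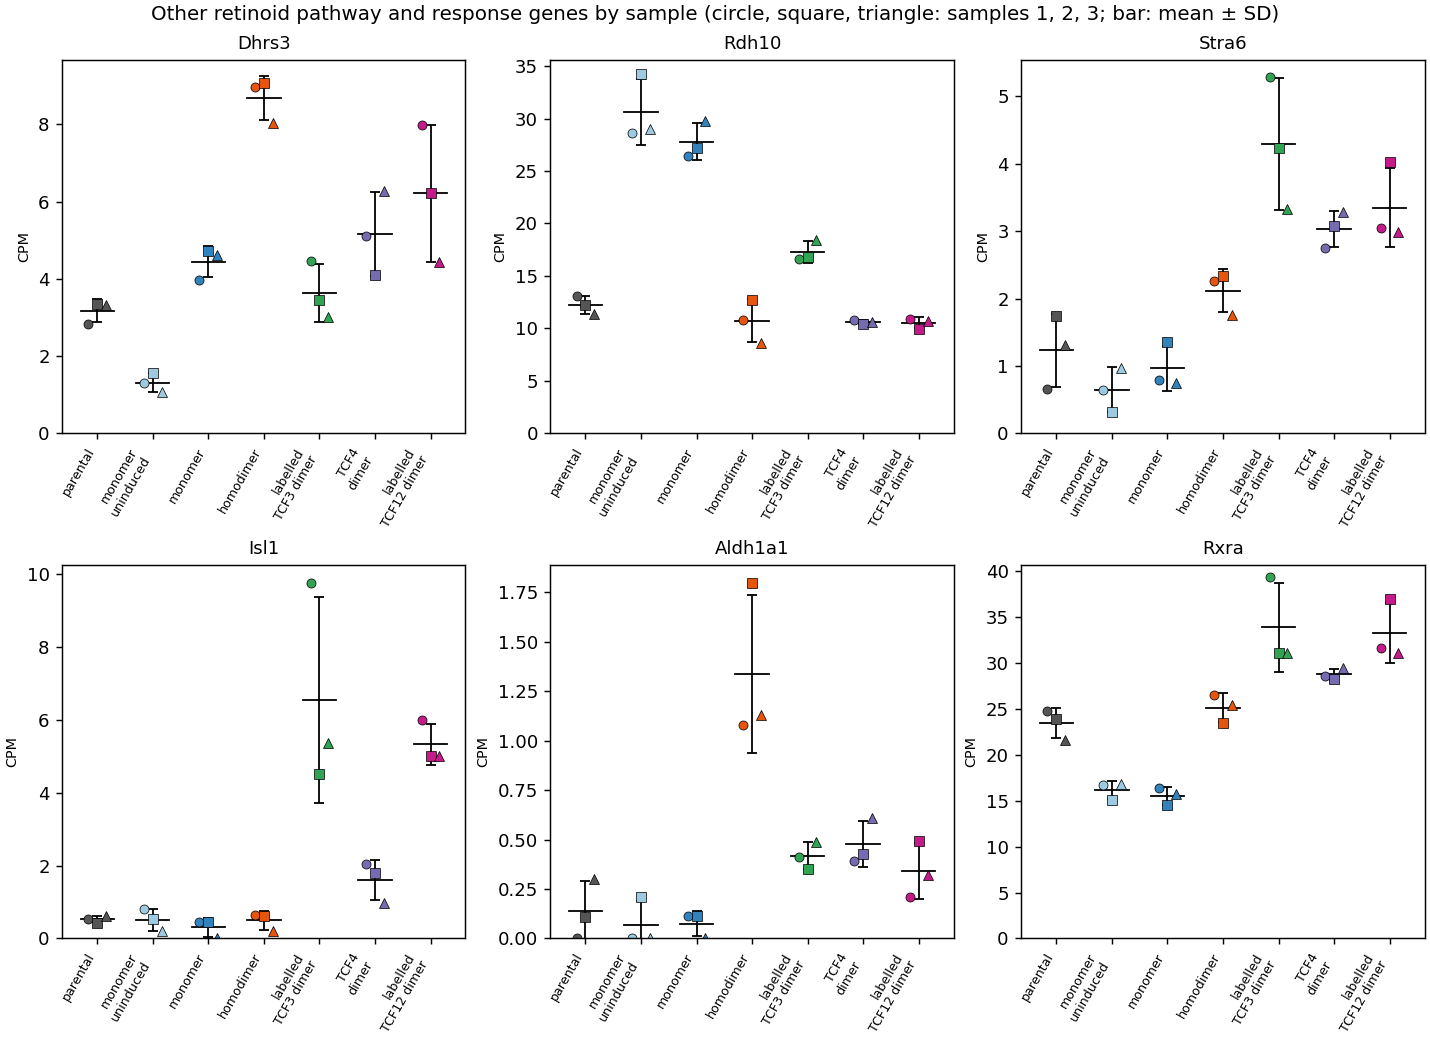
Levels (CPM, linear axes starting at 0) of Dhrs3, Rdh10, Stra6, Isl1, Aldh1a1 and Rxra in the 21 libraries; circle, square and triangle are samples 1, 2 and 3, bars the mean ± SD of 3. Dhrs3 and Aldh1a1 are highest in the homodimer, Rdh10 in the 2 groups of the monomer line, and Isl1 in the labelled TCF3 and TCF12 dimers.

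Among 17 retinoid X receptors and coregulators, of which 16 were tested, between 0 and 4 passed in any of the comparisons with a single control. The shares of all genes passing in these comparisons ran from 2.00% to 37.0%. Rxra, the main partner of the RAR receptors, held 23.4 ± 1.64 CPM in parental cells and fell to 16.2 ± 0.997 CPM in the uninduced (-0.53, adjusted p = 0.00138) and 15.5 ± 0.945 CPM in induced monomer cells (-0.59, 4.79e-04). It rose in the labelled TCF3 dimer to 33.9 ± 4.80 CPM (0.53, adjusted p = 5.00e-04) and in the labelled TCF12 dimer to 33.3 ± 3.23 CPM (0.51, 0.00112). Rxrg fell in uninduced monomer cells (-0.76, adjusted p = 0.00175), the labelled TCF3 dimer (-0.88, 2.12e-04) and the TCF4 dimer (-0.54, 0.0186). Ncoa3, a coactivator gene, rose in the uninduced (0.91, 4.21e-04) and induced monomer cells (0.83, 8.74e-04).

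Of 24 genes known from other work to respond to retinoic acid, 13 were tested, since 11, among them Hoxb1, Hoxb4, Cdx1 and Stra8, were too low. Against parental cells 2 rose and 1 fell in uninduced monomer cells, 4 rose and 2 fell in the induced monomer, 3 fell in the homodimer, 6 rose and 2 fell in the labelled TCF3 dimer, 4 fell in the TCF4 dimer, and 1 rose and 3 fell in the labelled TCF12 dimer. Among all genes 19.9%, 20.0%, 8.84%, 28.3%, 12.9% and 27.0% passed in that order. Isl1, a homeobox gene of cardiac and limb progenitors, was at 0.528 ± 0.0872 CPM in parental cells and rose to 9.75, 4.50 and 5.37 CPM in the labelled TCF3 dimer (3.60, adjusted p = 4.14e-06) and 5.98, 5.00 and 5.00 CPM in the labelled TCF12 dimer (3.30, 2.40e-05). Gbx2 rose in the uninduced (2.00, 3.68e-04) and induced monomer cells (1.55, 0.00419), and Meis1 (2.40, 0.00135) rose in the labelled TCF3 dimer. Markers of lateral and extra-embryonic mesoderm, 9 genes including Hand1 and Kdr, moved beside these: they summed to 19.3 to 22.3 CPM in parental cells, 86.9 to 109 CPM in the labelled TCF3 dimer, 57.1 to 72.1 CPM in the labelled TCF12 dimer and 33.8 to 42.8 CPM in the TCF4 dimer. In uninduced (56.3 to 68.0 CPM) and induced monomer cells (56.4 to 62.7 CPM) the sum was above that of the TCF4 dimer. By gene the order was the reverse. Of the 9 markers, 3 rose against parental cells in uninduced and 3 in induced monomer cells, and 5 in the TCF4 dimer, while 0 fell. The median log2 changes of the 9 were 0.16, -0.02 and 1.31 in that order. Isl1 averaged 0.511 and 0.302 CPM in uninduced and induced monomer cells, and Crabp1 passed in neither against parental cells. In the TCF4 dimer Isl1 held 2.04, 1.80 and 0.973 CPM. It passed there against the induced monomer (2.35, adjusted p = 0.00729) and not against parental cells. The part of these markers in the Isl1, Aldh1a2 and Crabp1 results was not tested.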

How the data were processed

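RNA from embryoid bodies was sequenced from TruSeq mRNA libraries, and the deposited files hold whole-number read counts per gene symbol, 1 table per sample, with no normalization. FastQC, TopHat2 and HTSeq and the build mm10/GRCm38 are named in the submitters' processing notes. Strand use in counting is not given in the sources used here. In 18 of the deposited files, dates stood in place of 25 symbols, and rows were joined by position. Library totals were 6648842 to 15999693 counts.

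Counts of all 21 samples were fitted in 1 model with 1 mean per group (R 4.3.3, edgeR 4.0.16, quasi-likelihood F-test, TMM factors, default filterByExpr with a minimum count of 10, Benjamini-Hochberg over 14311 genes, threshold 0.05). CPM use the same factors. The pipeline was tested on simulated data. No label says that replicate numbers mark a shared batch, so the main fit did not pair samples by number. Alternatives were DESeq2 1.42.0, other scaling factors and filters, a replicate block, fewer samples, and the uninduced line as the control. Exon lengths and positions are from GENCODE M21 (GRCm38) and promoter windows from RefSeq (GRCm38.p6).

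The 9 genes, the lists and the alternatives were chosen with earlier results of these data known. All 9 genes are named. From each other pathway list, up to 3 genes per comparison with the largest passing change and no overlap between groups could be named, and for the 3 genes with the widest range of group means, the 3 genes of highest Pearson correlation among those with at least 5 CPM in a group (pseudocount 0.5). Single values of some genes in these lists are not reported here.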

Additional observations from a re-analysis of the deposited data

How the results depend on the processing

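The number of the 7 genes passing in each comparison was recomputed under 8 kinds of alternative and with each library left out in turn. The share of all genes passing was not computed with only the groups compared, a replicate block, RLE factors or library size alone. Nor was it computed with a library left out, except sample 1 labelled TCF12 dimer. Changes in number under those settings cannot be set beside a background. In the induced against the uninduced monomer, where none passed, 1 passed with no scaling beyond library size, without a count filter and with only the groups compared, and 2 passed with DESeq2 and when sample 1 labelled TCF12 dimer was left out of the fit. In the induced monomer against parental cells, where 2 passed, 1 passed with the replicate block, without a count filter, with RLE factors and with no scaling beyond library size, and between 1 and 2 passed with a library left out, Rarg being the gene lost. Leaving out a library gave the same number or 1 fewer for the homodimer (2 to 3), the labelled TCF3 dimer (3 to 4) and the TCF4 dimer (3 to 4) against parental cells. With only the groups compared in the fit, 2 passed in place of 4 for the labelled TCF12 dimer against parental cells, 3 in place of 5 against the monomer, and 2 in place of 4 among the heterodimers; the cause was not tested. Sample 1 labelled TCF12 dimer is in each of these fits, and the common biological coefficient of variation was 0.12 with it and 0.0539 without it. Of the changes that passed under either control, those that turned direction with the uninduced line in place of parental cells were Rarg in the homodimer (-0.32) and labelled TCF12 dimer (-0.45), and Crabp2 in the homodimer (0.031) and labelled TCF3 dimer (0.64). With sample 1 of that line left out as well, a setting chosen after seeing the data, the Rarg changes were -0.28 and -0.40. Some differences that passed in neither fit turned too, among them Aldh1a3 in the labelled TCF12 dimer against the uninduced line (0.16) and, without sample 1 labelled TCF12 dimer, Cyp26a1 (-0.05) and Crabp2 (-0.09) between the labelled TCF12 and TCF4 dimers and Crabp1 between the labelled TCF3 and TCF12 dimers (0.04). Adding the replicate number as a block left 4 of 5 passing for the labelled TCF12 dimer against the monomer (Rarg, adjusted p = 0.0573) and 1 of 2 for induced monomer against parental cells (Rarg, 0.0570), with no other count changed. Same-numbered samples of different groups had a mean correlation of deviations of 0.0214 (63 pairs, -0.221 to 0.344), against -0.0102 (126 pairs, -0.360 to 0.296) for differently numbered ones. Of 21 samples, 12 correlated best with their own number out of 3, and whether the number marks a shared batch was not tested. Depth limits Cyp26b1 and Rarb, whose levels lie around the floor of 3 counts.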
